A study of Mus musculus with 12 samples.

Results

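Nt5e, Entpd1 and Adora2a were followed through regulatory T cells (Tregs) from the pancreatic islets and the spleen. These 3 genes of 24421 listed in each table were chosen by name, as the enzymes and the receptor of the extracellular adenosine pathway. No measured value entered the rule, but earlier results of these data were known when the choice was made. Entpd1 encodes CD39, a surface enzyme that strips phosphates from extracellular ATP and ADP to leave AMP. Nt5e encodes CD73, which removes the last phosphate to release adenosine. Adora2a encodes the adenosine receptor through which T cells chiefly respond: it couples to the stimulatory G protein, raises cyclic AMP and dampens T cell activation. Mouse Tregs are known to carry both enzymes on their surface, where the pair turns ATP, a signal of tissue damage, into a suppressive one.

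The Tregs were sorted from NOD mice, a strain prone to autoimmune diabetes, at an age of 6.8 weeks. The mice were retrogenic, so their T cell receptors (TCRs) were introduced by gene transfer into blood stem cells, and both receptors studied, 4-8 and 12-4.4m1, recognise insulin. The design text speaks of Tregs of high and of low affinity and names 4-8 before 12-4.4m1. The 12 libraries formed 4 groups of 3, namely islet 4-8, islet 12-4.4m1, spleen 4-8 and spleen 12-4.4m1. All groups shared the strain, the age and the sort as Tregs, and a group therefore differed from its neighbour in the TCR or in the tissue. The labels name no mouse, pool or sort day, so a p-value speaks only of how far these libraries spread, which may be technical. With 3 libraries against 3, an exact 2-sided permutation test of a single gene cannot go below p = 0.1, and p-values here come from a limma model over all genes instead.

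Each pair of groups had a table of its own, in which the authors had normalized the 6 libraries together and given each gene an rlog value, a log2 scale that draws noisy low values towards the gene's mean. Values were compared only within a table. The 2 TCR tables share no library with each other, nor do the 2 tissue tables, but TCR and tissue tables share libraries. For islet 4-8, replicate 3 is named in the tissue table alone, and the TCR table has in its place a column whose number matches no title. That column stood to replicate 1 much as replicate 3 did in the tissue table. Entpd1 was 7.335 against 7.230 in replicate 1, and in the tissue table replicate 3 had 7.927 against 7.822. For Crem the pairs were 7.491 against 7.312 and 7.764 against 7.588. The column thus looks like replicate 3, but the labels do not say so, and it was kept without a number. A gene was tested where its mean normalized count reached 10, and a gene was called at a Benjamini-Hochberg adjusted p of 0.05. Entpd1, Nt5e and Adora2a all passed that filter in all 4 tables. Their mean normalized counts ran from 88.9 to 231 for Entpd1, and Nt5e had 25.7 in the islet TCR table and 45.2 in the spleen TCR table. Adora2a had 50.6 in the islet TCR table and 42.9 in the 12-4.4m1 tissue table.

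Foxp3, the factor that defines Tregs, lay between 149 and 170 FPKM in every group and differed by no more than 0.14 on the log2 scale in any table, without passing. Of the 8 Treg markers read, however, 2 were higher in islets in each tissue table. Of the 7 T cell markers, 3 were higher in islets in 4-8 and 1 in 12-4.4m1. The shares of all genes higher in islets were 5.14% in 4-8 and 4.63% in 12-4.4m1. Transcripts of other cells were present to different degrees. Genes of the heat shock and dissociation response were higher in islet libraries. In the 4-8 table these were 14 of 14 tested (5.14% of all genes), with a median log2 difference of 1.86. In the 12-4.4m1 table they were 15 of 15 (4.63% of all genes), with a median of 1.96. Of the digestive enzyme genes of pancreatic acinar cells, 7 of 9 tested were higher in islets in the 4-8 table and 8 of 9 in the 12-4.4m1 table, beside the same shares of all genes. Their summed FPKM in the authors' deposited table was 391 in islets against 13 in spleen for 4-8, and 651 against 10.5 for 12-4.4m1. Between the TCRs limma called 0 genes of either list in either tissue. In islets, however, the heat shock list leaned lower in 4-8, with a median log2 difference of -0.39. Its groups did not overlap for 8 of 15 genes (11.9% of all genes), and 9 had an unadjusted p under 0.05. The share of all genes at that unadjusted p was not counted in islets. The authors' deposited DESeq2 table called Hspa1a (adjusted p 0.00226), Hspa1b (0.0185) and Hsph1 (0.0374) there. In spleen the median was -0.17, with 3 of 9 tested genes at an unadjusted p under 0.05 (7.93% of all genes). Hsp90aa1 had a q of 0.0339 there in the authors' deposited Cuffdiff table. Of the acinar list, 2 of 12 genes tested in islets were at an unadjusted p under 0.05 between the TCRs, and 0 were tested in spleen. Marker sums of B cells were at most 10.5 FPKM in any group, with the defining factors Pax5 and Ebf1 at 0, and those of endothelial cells at most 12.5 FPKM, with Cldn5 at 0. The myeloid sum of 517 to 670 FPKM came mostly from Cst3, which many cells express, while Csf1r did not exceed 0.554 FPKM. The part of any of these transcripts in the differences below was not tested, and in bulk libraries fewer cells of a kind and less RNA per cell cannot be told apart.

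Entpd1 was the most abundant of the 3 genes per unit of length, though barely so in islet 12-4.4m1 Tregs. In the authors' deposited tables its FPKM, 1 value per group and table, was 52.5 and 54.0 in islet 4-8 Tregs, 30.2 and 29.0 in spleen 4-8, 26.5 and 27.7 in islet 12-4.4m1, and 17.4 and 16.8 in spleen 12-4.4m1. The order thus ran from islet 4-8 at the top to spleen 12-4.4m1 at the bottom. The middle groups, spleen 4-8 and islet 12-4.4m1, share no table and their order was not tested. In islet 12-4.4m1 Tregs Adora2a was nearly level with Entpd1, at 25.9 and 27.0, and these FPKM values carry no replicate error. Entpd1 lies on the plus strand of chromosome 19 (GRCm38, 40612366 to 40741602) and is protein-coding.

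The 250 bases upstream of the Entpd1 start that the authors' locus lies nearest to are shown because Entpd1 had the highest level of the 3 genes and a difference in the same direction in every table, and because cyclic AMP, the signal raised by the adenosine receptor, acts on genes through the motif searched for. The stretch is chr19:40659520-40659769 on the plus strand (GRCm38.p6, RefSeq), which lies inside the annotated span of the gene, downstream of where that span begins. Capitals mark the match to TGACG, the core of the cyclic AMP response element, read on the opposite strand.
Entpd1: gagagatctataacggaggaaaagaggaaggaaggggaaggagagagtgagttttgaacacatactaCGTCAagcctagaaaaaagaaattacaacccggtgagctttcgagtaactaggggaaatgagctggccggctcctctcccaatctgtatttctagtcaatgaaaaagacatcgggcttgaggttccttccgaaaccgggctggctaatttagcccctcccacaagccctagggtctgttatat
The match lies 183 bases before the start, and 17.8% of 32851 upstream windows of the same length hold TGACG on either strand. The full element TGACGTCA, of which TGACG is a part, was not in the window and was in 1.55% of all windows. The AP-1 motif TGANTCA (6.75% of windows) and the forkhead motif TGTTTAC (3.17%) had no match either. These letters describe the window and say nothing of binding.

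**Figure D1:**
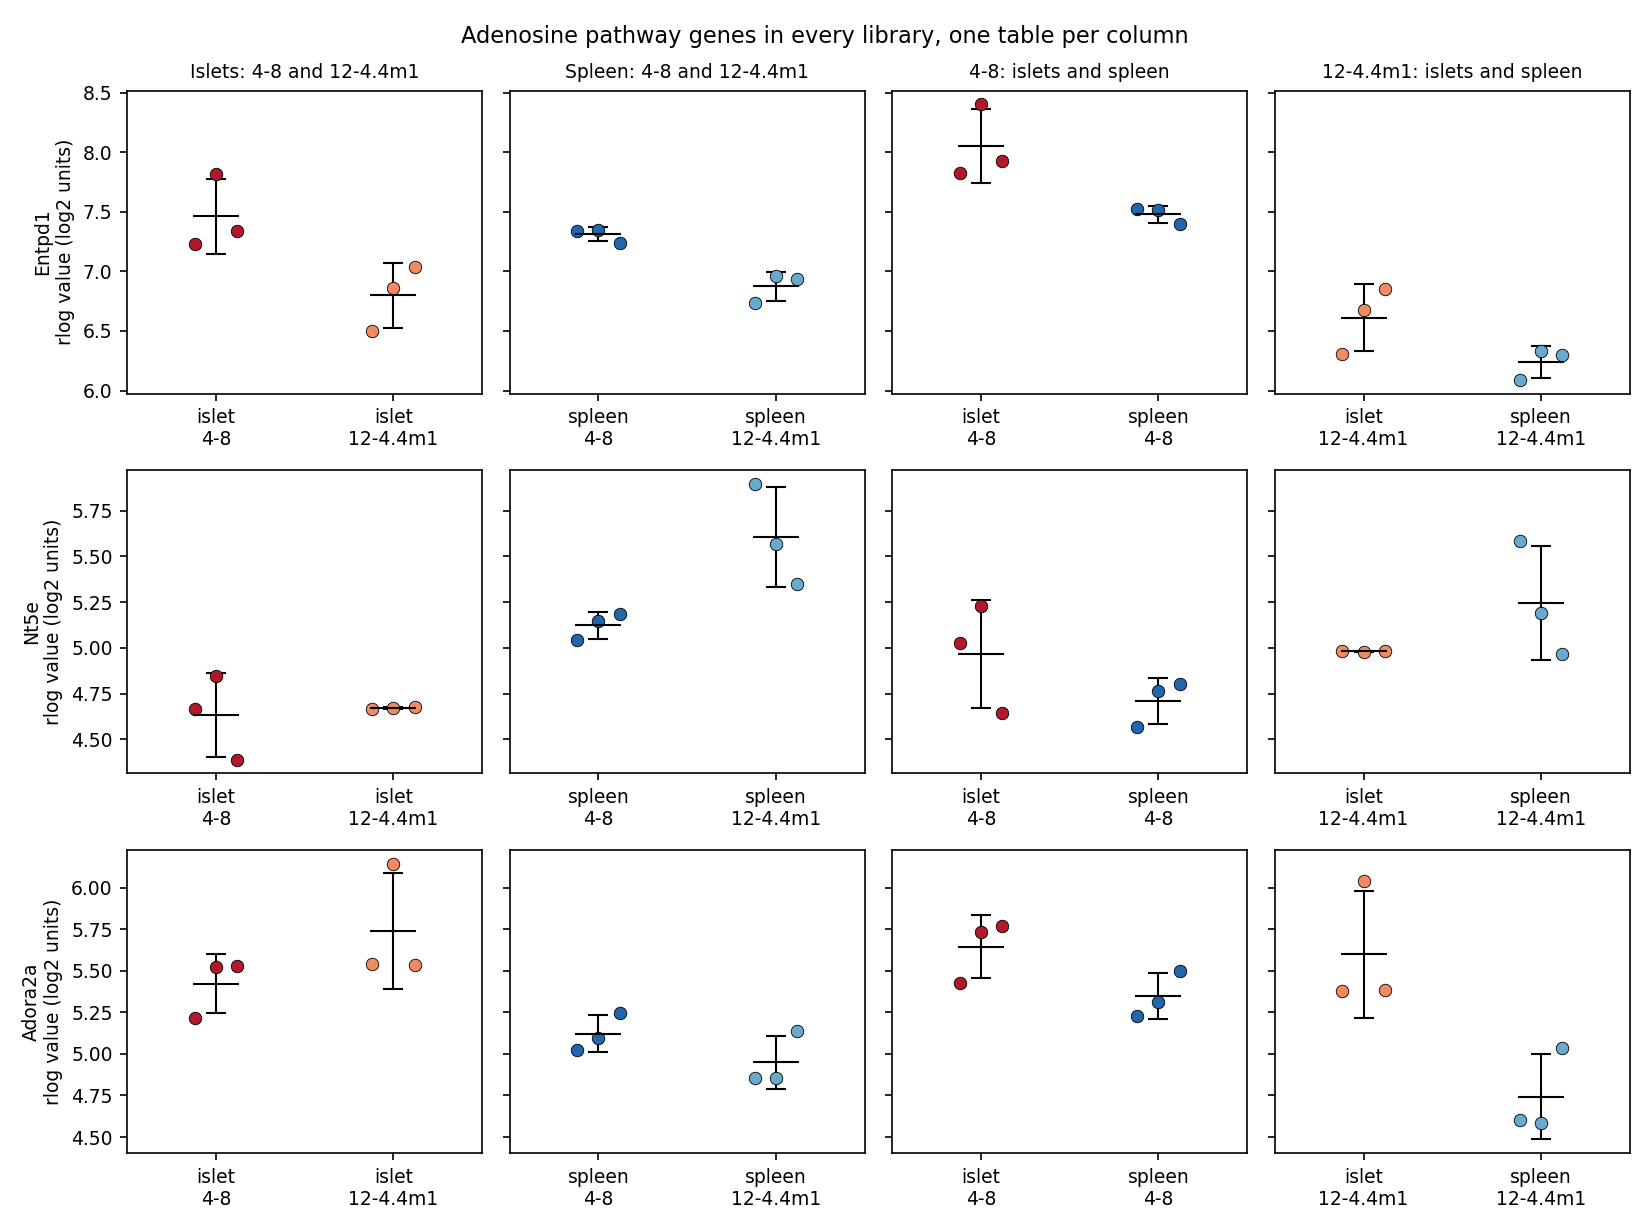
The rlog value of Entpd1, Nt5e and Adora2a (vertical axes, log2 units) in each library, with 1 column of panels per table, points for libraries, and bars for the mean and SD of each group of 3. Entpd1 4-8 libraries lie above all 12-4.4m1 libraries in both TCR tables, Nt5e 4-8 libraries lie below all 12-4.4m1 libraries in spleen only, and 1 islet 12-4.4m1 library stands above the other two for Adora2a.

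Between the TCRs, Entpd1 was higher in every 4-8 library than in any 12-4.4m1 library, in islets and in spleen, and neither difference passed adjustment over all genes. In islets the 4-8 libraries had rlog values of 7.23 (replicate 1), 7.82 (replicate 2) and 7.34, and the 12-4.4m1 libraries 6.50, 6.86 and 7.04 in replicates 1 to 3. The groups did not overlap, and the highest 12-4.4m1 library came close to the lowest 4-8 library. The means were 7.46 ± 0.31 and 6.80 ± 0.27 (SD, n = 3 each), a log2 difference of 0.66 ± 0.21 (SE) with a 95% interval of 0.24 to 1.08, or 1.58-fold (limma, unadjusted p = 0.0031, adjusted p = 0.284). That p ranked 88 of 8212 genes, of which 0.365% were called, and the groups of 11.9% of the genes did not overlap.

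In spleen the 4-8 libraries had Entpd1 values of 7.34, 7.35 and 7.24 on the rlog scale and the 12-4.4m1 libraries 6.74, 6.96 and 6.93. Every 4-8 library lay above 7.2 and every 12-4.4m1 library below 7.0, so that the groups did not overlap. The means were 7.31 ± 0.06 and 6.88 ± 0.12 (SD, n = 3 each), a log2 difference of 0.43 ± 0.12 (SE), 95% interval 0.18 to 0.69, or 1.35-fold (limma, unadjusted p = 0.0016, adjusted p = 0.157). Of 9108 genes 0.428% were called in this table, and 13.3% had groups that did not overlap. Leaving out any single library changed neither direction nor call of Entpd1 in either TCR table.

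The authors' own tests divided on Entpd1 between the TCRs. Their deposited DESeq2 tables gave log2 differences of 0.78 in islets and 0.58 in spleen, 4-8 over 12-4.4m1, with adjusted p-values of 0.667 and 0.715. The authors' deposited Cuffdiff tables gave FPKM ratios of 1.98 and 1.74, and q-values of 0.0485 and 0.0488, both just under 0.05. The FPKM ratios are wider than the folds of the rlog values, which are shrunken.

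Between the tissues, Entpd1 rose in islets over spleen in 4-8 Tregs. The islet libraries had rlog values of 7.82, 8.40 and 7.93 and the spleen libraries 7.52, 7.51 and 7.40. All islet libraries lay above all spleen libraries, and islet replicate 2 stood apart at the top. The means were 8.05 ± 0.31 and 7.48 ± 0.07 (SD, n = 3 each), a log2 difference of 0.57 ± 0.17 (SE), 95% interval 0.22 to 0.93, or 1.49-fold (limma, adjusted p = 0.0459), in a table where 7.98% of 8981 genes were called and the groups of 27.4% did not overlap. The call was thin. It was lost without any 1 of the 3 spleen libraries (adjusted p 0.128 to 0.191) and without islet replicate 2, where the difference was 0.40 and the adjusted p 0.0769. It was kept without islet replicate 1 or 3. The authors' deposited DESeq2 table gave an adjusted p of 0.0587 and their deposited Cuffdiff table a q of 0.00251 for this comparison.

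In 12-4.4m1 Tregs the same comparison did not pass. Entpd1 had rlog values of 6.30, 6.68 and 6.85 in islets and 6.09, 6.34 and 6.30 in spleen. Islet replicate 1 lay level with the spleen libraries, so the groups overlapped. The log2 difference was 0.37 ± 0.18 (SE), 95% interval 0.00 to 0.74 (limma, adjusted p = 0.247), where 6.81% of 8438 genes were called. The difference between this value and the 0.57 of 4-8 Tregs was not tested, since the tables were normalized separately and their libraries do not share a scale. For 12-4.4m1 Tregs the authors' deposited DESeq2 table gave a log2 difference of 0.54 with an adjusted p of 0.514. Their deposited Cuffdiff table gave an FPKM ratio of 1.65 with a q of 0.0547, just above 0.05.

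Nt5e, the enzyme that makes adenosine, had a lower FPKM than Entpd1 in every group, and its order of groups was not that of Entpd1. In the authors' deposited tables spleen 12-4.4m1 Tregs had the highest FPKM, 13 and 12.5, followed by islet 4-8 with 7.56 and 7.78, islet 12-4.4m1 with 7.21 and 7.54, and spleen 4-8 with 5.13 and 4.93. The islet groups did not differ beyond the spread of their libraries, as shown next. The gene is protein-coding and lies on the plus strand of chromosome 9 (GRCm38, 88327197 to 88372092).

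In spleen, the 4-8 libraries had Nt5e values of 5.04, 5.15 and 5.18 on the rlog scale and the 12-4.4m1 libraries 5.89, 5.57 and 5.35. Every 12-4.4m1 library was higher than every 4-8 library, and the 12-4.4m1 libraries were the more spread. The means were 5.12 ± 0.07 and 5.60 ± 0.27 (SD, n = 3 each), a log2 difference of -0.48 ± 0.13 (SE), 95% interval -0.75 to -0.21, which is 1.40-fold more in 12-4.4m1 Tregs (limma, unadjusted p = 0.0012, adjusted p = 0.140). It did not pass with all libraries, and it passed without spleen 12-4.4m1 replicate 3, the lowest of its group, at a difference of -0.61 and an adjusted p of 0.0245. The authors' deposited DESeq2 table gave a log2 difference of -0.77 with an adjusted p of 0.382, and their deposited Cuffdiff table a q of 0.0609 at an FPKM 2.53 times as high in 12-4.4m1.

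In islets there was no such separation. The 4-8 libraries had Nt5e values of 4.66, 4.85 and 4.39 on the rlog scale and the 12-4.4m1 libraries 4.67, 4.67 and 4.68. The 12-4.4m1 libraries were almost equal to one another and lay within the range of the 4-8 libraries. The log2 difference was -0.04 ± 0.19 (SE), with a 95% interval of -0.42 to 0.34 (limma, adjusted p = 0.987). On the rlog scale, which is shrunken, a difference of the size seen in spleen lies just outside that interval. The authors' deposited DESeq2 table gave a log2 difference of -0.06 with an SE of 0.38 in islets, beside -0.77 in spleen. With so wide an SE, a difference of the size seen in spleen is not excluded in islets. The difference between the tissues was not tested. In the authors' deposited Cuffdiff table this gene was not tested in islets.

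Between the tissues, Nt5e passed in neither TCR. In 4-8 Tregs the islet libraries had rlog values of 5.03, 5.23 and 4.64 and the spleen libraries 4.57, 4.76 and 4.80. The groups overlapped through islet replicate 3, and the log2 difference was 0.25 ± 0.19 (SE), 95% interval -0.15 to 0.66 (limma, adjusted p = 0.477). In 12-4.4m1 Tregs the islet libraries were all at 4.98, and the spleen libraries were at 5.58, 5.19 and 4.97, so that only spleen replicate 3 reached down to the islet level. That log2 difference was -0.27 ± 0.20 (SE), 95% interval -0.67 to 0.14 (limma, adjusted p = 0.493).

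On the rlog scale, the ranges of Entpd1 minus Nt5e lay apart between the TCRs within each TCR table. Between the tissues they overlapped, in 12-4.4m1 Tregs only barely. By FPKM in the authors' deposited tables, Entpd1 was 6.95 times Nt5e in islet 4-8 Tregs, 5.89 times in spleen 4-8, 3.67 times in islet 12-4.4m1 and 1.34 times in spleen 12-4.4m1. Within each library of the spleen TCR table, Entpd1 minus Nt5e on the rlog scale was 2.06 to 2.30 in 4-8 and 0.84 to 1.58 in 12-4.4m1. In the islet TCR table it was 2.57 to 2.97 and 1.84 to 2.36. The ranges of the TCRs did not meet in either tissue. In the tissue tables the ranges overlapped: 2.80 to 3.28 in islets and 2.59 to 2.96 in spleen for 4-8, and 1.32 to 1.87 and 0.51 to 1.33 for 12-4.4m1. The 12-4.4m1 overlap was slight, with islet replicate 1 at 1.323 and spleen replicate 3 at 1.328. By FPKM the tissues of 12-4.4m1, 3.67 against 1.34, were proportionally further apart than the TCRs in islets, 6.95 against 3.67. No ranking of TCR over tissue is read from these ranges. The rlog difference is not a ratio of levels, since it changed with the table. The same spleen 4-8 libraries ran from 2.06 to 2.30 in the spleen TCR table and from 2.59 to 2.96 in the tissue table. The FPKM ratio and the rlog difference were formed from genes already described and were not tested.

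**Figure D2:**
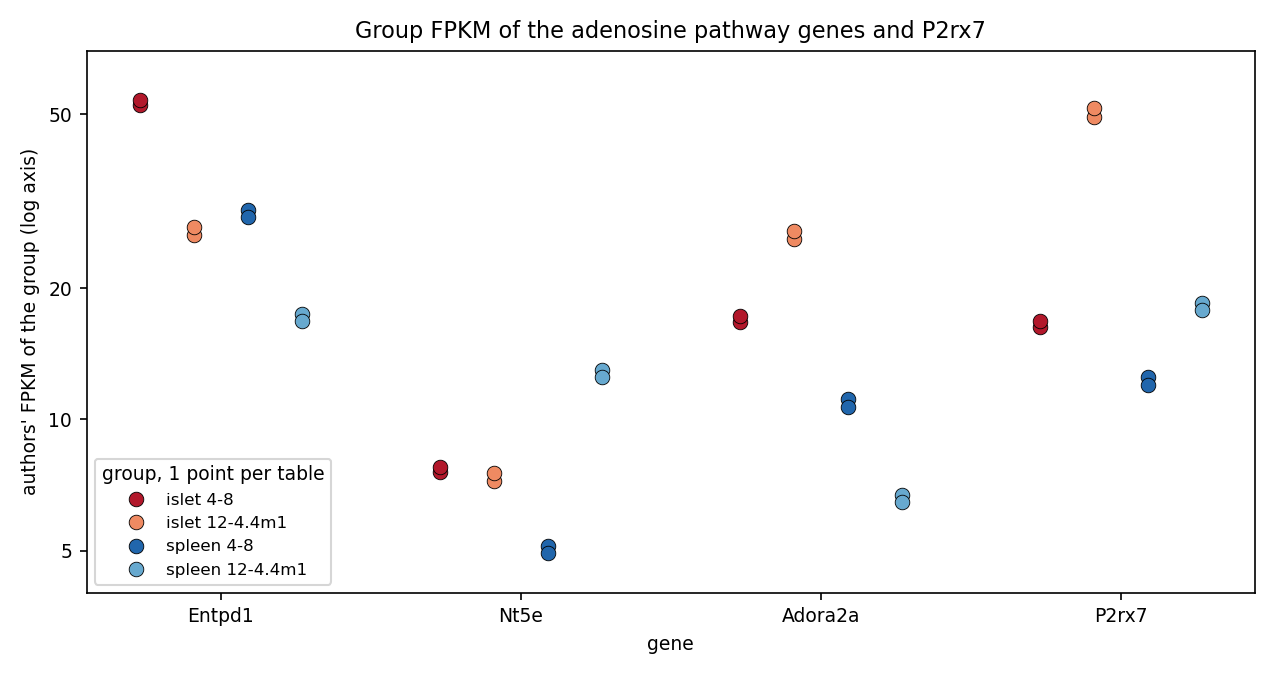
FPKM of Entpd1, Nt5e, Adora2a and P2rx7 (vertical log axis) in each group as the authors' deposited tables give it, with 1 point per table and no replicate error. Entpd1 is highest in islet 4-8 Tregs at 52.5 and 54.0, whereas Adora2a and P2rx7 are highest in islet 12-4.4m1 Tregs and Nt5e in spleen 12-4.4m1 Tregs.

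Adora2a, the receptor for the product of both enzymes, had its highest FPKM in islet 12-4.4m1 Tregs, 25.9 and 27.0 in the authors' deposited tables. Islet 4-8 followed with 16.7 and 17.3, then spleen 4-8 with 11.1 and 10.7, and spleen 12-4.4m1 was lowest with 6.72 and 6.48. Islets thus stood above spleen for both TCRs, and only the difference between the ends of this order passed a test. The gene is protein-coding, on the plus strand of chromosome 10 (GRCm38, 75316877 to 75334784).

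In 12-4.4m1 Tregs, Adora2a rose in islets over spleen. The islet libraries had rlog values of 5.38, 6.04 and 5.38 and the spleen libraries 4.60, 4.59 and 5.04. All islet libraries lay above all spleen libraries, islet replicate 2 stood well above the other two, and spleen replicate 3 was the highest of the spleen. The means were 5.60 ± 0.38 and 4.74 ± 0.26 (SD, n = 3 each), a log2 difference of 0.86 ± 0.21 (SE), 95% interval 0.42 to 1.29, or 1.81-fold (limma, adjusted p = 0.0129), and 24.1% of genes in this table had groups that did not overlap. The authors' deposited tables called it too, with a DESeq2 log2 difference of 1.51 (adjusted p 0.00878) and a Cuffdiff FPKM ratio of 4.17 (q = 0.00389). The limma call was lost without islet replicate 2, where the difference was 0.64 (adjusted p 0.0767), without spleen replicate 1 (0.79, adjusted p 0.0806) and without spleen replicate 2 (0.78, adjusted p 0.0760). The direction was kept throughout.

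In 4-8 Tregs, Adora2a had rlog values of 5.43, 5.74 and 5.77 in islets and 5.23, 5.31 and 5.50 in spleen. The groups overlapped, with islet replicate 1 under spleen replicate 3. The log2 difference was 0.30 ± 0.18 (SE), 95% interval -0.08 to 0.68 (limma, adjusted p = 0.354). Whether it differed from the 0.86 of 12-4.4m1 Tregs was not tested.

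Between the TCRs, Adora2a did not pass in either tissue. In islets the 4-8 libraries had rlog values of 5.22, 5.52 and 5.53 and the 12-4.4m1 libraries 5.54, 6.14 and 5.53. The groups met at 5.53 without crossing, and 12-4.4m1 replicate 2 alone was clearly higher. The log2 difference was -0.32 ± 0.20 (SE), 95% interval -0.73 to 0.10 (limma, adjusted p = 0.823), and -0.11 without that library. In spleen the 4-8 libraries had 5.03, 5.10 and 5.24 and the 12-4.4m1 libraries 4.86, 4.85 and 5.14 on the rlog scale. The groups overlapped, and the log2 difference of 0.17 ± 0.12 (SE), 95% interval -0.07 to 0.42, was of the opposite sign to that in islets (limma, adjusted p = 0.771).

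The other adenosine receptors could not be compared. Adora1, Adora2b and Adora3 fell below the filter in every table, and Adora1 was listed at 0. Adora2a was therefore the single adenosine receptor gene tested.

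The wider pathway was read from a list of 116 gene symbols, of which 114 were in the tables, in 6 groups: surface nucleotide-cleaving enzymes, adenosine receptors, adenosine uptake and conversion, the NAD arm, ATP release and ATP receptors, and cyclic AMP signalling. With Entpd1, Nt5e and Adora2a included, 53 genes were tested between the TCRs in islets, and 0 were higher and 1 lower in 4-8. In spleen 58 were tested, and limma called 0 in either direction, with 6 at an unadjusted p under 0.05 and none called in the authors' deposited DESeq2 table. Between tissues, 3 of 58 were higher and 2 lower in islets for 4-8, and 5 of 55 were higher and 1 lower for 12-4.4m1. The median log2 differences were -0.04, 0.02, 0.05 and 0.06 in that order, beside medians of all tested genes between -0.01 and 0.00. Of all genes tested, 0.256% were higher and 0.11% lower in 4-8 in islets, and 0.209% and 0.22% in spleen, where 7.93% had an unadjusted p under 0.05. Of all genes, 5.14% were higher and 2.84% lower in islets in the 4-8 table, and 4.63% and 2.18% in the 12-4.4m1 table. The counts of the list lay near these shares or rested on few genes, and no change of the list as a whole is read from them.

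**Figure D3:**
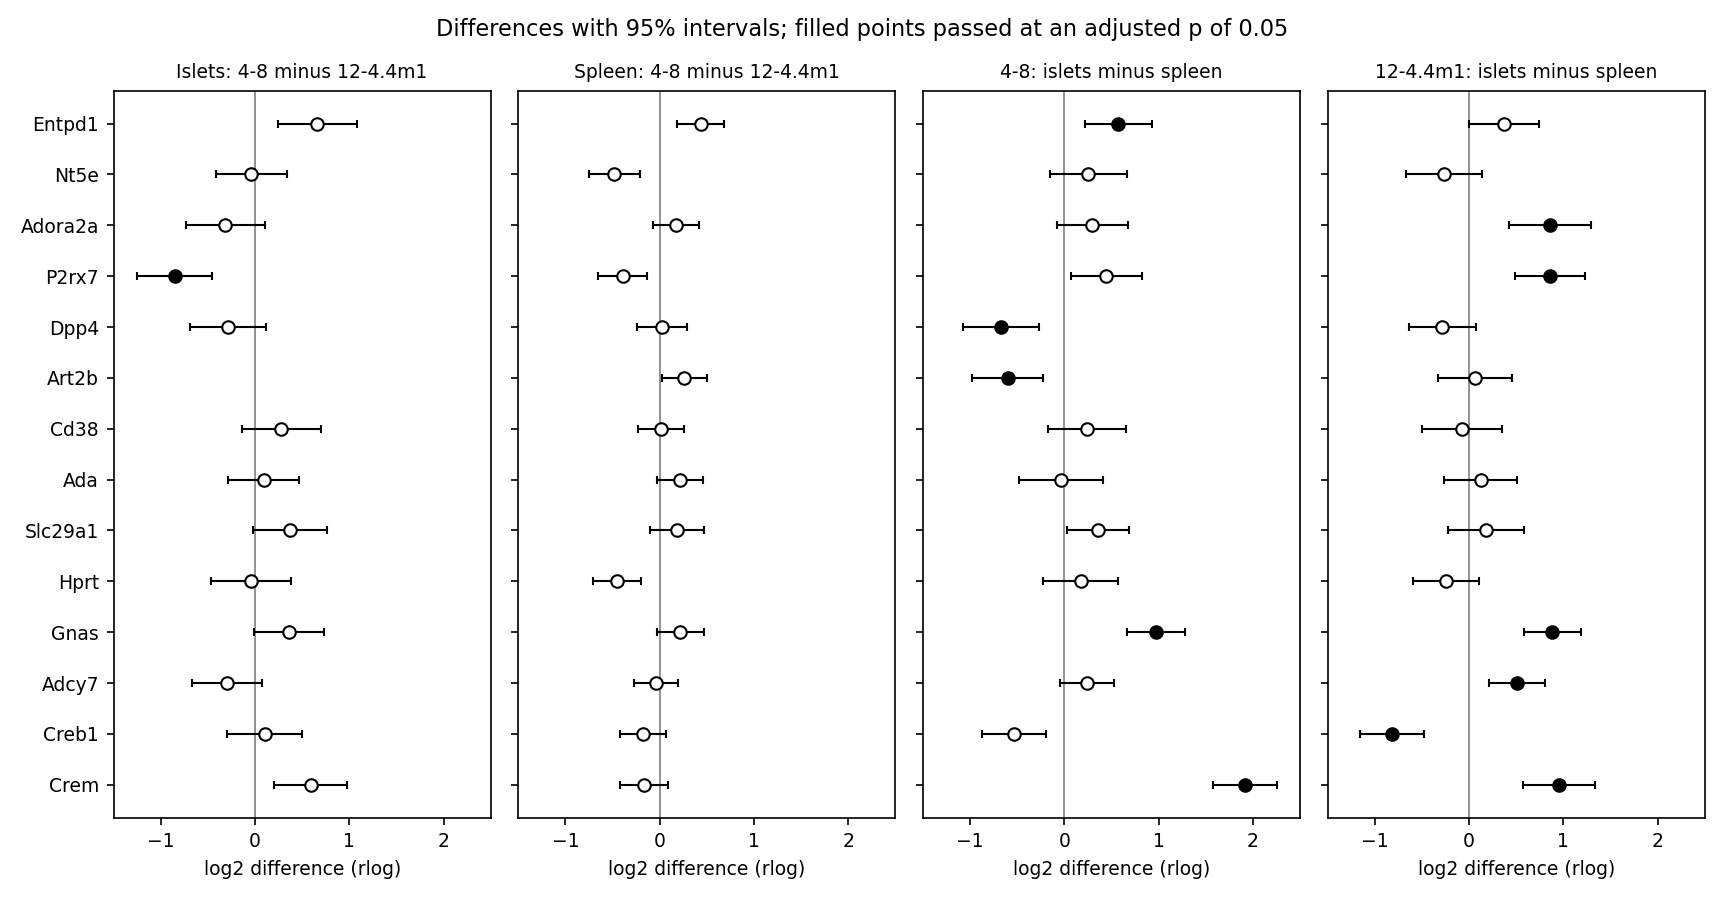
Log2 difference of rlog values (horizontal axis) with its 95% interval for the named genes of the pathway, 1 panel per table, and filled points for genes that passed at an adjusted p of 0.05. Genes below the filter have no point. Crem has the widest difference drawn, 1.92 in the 4-8 tissue table, and P2rx7 is the single filled point of the TCR panels.

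Of the surface nucleotide-cleaving enzymes, Entpd1 and Nt5e included, limma called 0 of 8 tested in the islet TCR table (0.365% of all genes). Entpd1 and Enpp4, 2 of the 8, had an unadjusted p under 0.05, a share not counted over all genes in islets. The authors' deposited Cuffdiff table called Entpd1 there, as given above. In the 4-8 tissue table limma called 1 of 8 (7.98% of all genes), which was Entpd1. Enpp4 had the widest difference of the remaining ones between the TCRs in islets, 0.39 on the log2 scale without overlap of the groups (limma, adjusted p = 0.581), and it was named after its values were seen. No other enzyme of this group passed in limma in any table.

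P2rx7, the ATP-gated channel that responds to the ATP that CD39 cleaves and whose prolonged opening can kill T cells, was the pathway gene called between the TCRs. In islets it had rlog values of 5.69, 5.83 and 6.0 in the 4-8 libraries and 6.72, 6.89 and 6.47 in the 12-4.4m1 libraries. No library of one group reached the other. P2rx7 was lower in 4-8 Tregs, with a log2 difference of -0.85 ± 0.19 (SE), or 1.81-fold more in 12-4.4m1 (limma, adjusted p = 0.0411). The authors' deposited DESeq2 table gave an adjusted p of 0.0484 and their deposited Cuffdiff table a q of 0.151. The limma call was kept without the 12-4.4m1 replicate 3 library and without the 4-8 library whose number matches no title, and it was lost without any 1 of the other 4, namely 4-8 replicates 1 and 2 and 12-4.4m1 replicates 1 and 2, with adjusted p up to 0.350. It was also lost at a mean normalized count of at least 50 (0.0505) and with robust estimation (0.0502). In spleen the log2 difference was -0.39 (limma, adjusted p = 0.273).

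P2rx7 also rose in islets over spleen in 12-4.4m1 Tregs. The islet libraries had rlog values of 6.84, 7.03 and 6.59 and the spleen libraries 6.01, 5.70 and 6.18. The groups lay well apart, with a log2 difference of 0.86 ± 0.18 (SE) (limma, adjusted p = 0.00356) that passed without any 1 library. In 4-8 Tregs the log2 difference was 0.45 (limma, adjusted p = 0.144). By FPKM in the authors' deposited tables, Entpd1 was 3.23 times P2rx7 in islet 4-8 Tregs and 0.535 times in islet 12-4.4m1 Tregs. In spleen the ratios were 2.42 for 4-8 and 0.945 for 12-4.4m1. The order of the genes by FPKM thus turned between the TCRs in both tissues. These FPKM values carry no replicate error, and the ratios were not tested.

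Of the genes for adenosine uptake and conversion, limma called 1 of 18 tested in the 4-8 tissue table and none in the other tables. Over all genes 7.98% were called in that table, so no change of the group is read from this count. Dpp4, the surface peptidase CD26, had rlog values of 5.65, 6.22 and 6.05 in islet 4-8 Tregs and 6.39, 6.71 and 6.83 in spleen 4-8 Tregs. Islet replicate 1 was the lowest library, and the groups did not overlap. Dpp4 fell by 0.67 on the log2 scale in islets (limma, adjusted p = 0.0379), a call kept without islet replicate 2 or 3 and lost without islet replicate 1 (adjusted p 0.140) or any 1 of the spleen libraries (up to 0.202), and lost with no filter (0.0527). In 12-4.4m1 Tregs its log2 difference was -0.28 (limma, adjusted p = 0.392). Ada, which deaminates adenosine, and Slc29a1, a transporter that carries it across the membrane, passed in no table. The log2 difference of Ada was at most 0.21 in size, and that of Slc29a1 was 0.37 between the TCRs in islets (limma, adjusted p = 0.760) and 0.36 between the tissues in 4-8 Tregs (limma, adjusted p = 0.179). Hprt, a purine salvage enzyme, had a log2 difference of -0.45 between the TCRs in spleen that did not pass (limma, adjusted p = 0.138).

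In the NAD arm, Art2b, an enzyme that modifies P2rx7 using extracellular NAD, was lower in islet than in spleen 4-8 Tregs by -0.60 ± 0.18 (SE) on the log2 scale (limma, adjusted p = 0.0479). Its near-identical neighbour makes its reads uncertain, and the call was kept without islet replicate 2 and lost without any 1 of the other 5 libraries, with adjusted p up to 0.175, and lost with no filter (0.0694) or a replicate block (0.0561). In 12-4.4m1 Tregs the log2 difference was 0.06 (limma, adjusted p = 0.905). Cd38, which breaks down extracellular NAD, passed in no table, with log2 differences from -0.08 to 0.28.

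Cyclic AMP signalling acts downstream of Adora2a and was the largest of the 6 groups, with 23 genes tested in each tissue table. Between the tissues, 2 of them were higher in islets in 4-8 Tregs, and 3 were higher and 1 lower in 12-4.4m1 Tregs, beside 5.14% higher and 4.63% higher and 2.18% lower of all genes in those tables. Crem, a cyclic AMP-responsive factor of which a short form represses transcription, had rlog values of 7.59, 7.80 and 7.76 in islet 4-8 Tregs and 5.87, 5.89 and 5.65 in spleen 4-8 Tregs. The groups were far apart beside the spread within each. Crem rose by 1.92 ± 0.16 (SE) on the log2 scale in islets (limma, adjusted p = 4.44e-07) and by 0.95 ± 0.18 (SE) in 12-4.4m1 Tregs (limma, adjusted p = 0.00148). Both calls held without any 1 library. Between the TCRs in islets it had rlog values of 7.31, 7.55 and 7.49 in 4-8 and 6.75, 6.88 and 6.96 in 12-4.4m1. Those groups did not overlap, and the log2 difference of 0.59 ± 0.19 (SE) did not pass (limma, adjusted p = 0.305). In spleen it was -0.17 (limma, adjusted p = 0.792).

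Gnas, which encodes the stimulatory G protein subunit that couples the adenosine receptor to adenylyl cyclase, was higher in islets for both TCRs. Its rlog values were 10.03, 9.98 and 10.42 in islet 4-8 Tregs and 9.06, 9.23 and 9.22 in spleen 4-8 Tregs. It rose by 0.97 ± 0.15 (SE) on the log2 scale in 4-8 (limma, adjusted p = 0.000370) and by 0.88 ± 0.15 (SE) in 12-4.4m1 (limma, adjusted p = 0.000247), and both calls held without any 1 library. The locus has overlapping and antisense transcripts, and whether the counting used strand is not given in the sources used here, so its value is uncertain.

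Creb1, the constitutive cyclic AMP-responsive factor, moved the other way. In 12-4.4m1 Tregs it had rlog values of 6.71, 6.39 and 6.46 in islets and 7.32, 7.45 and 7.25 in spleen, groups that did not overlap. It fell by 0.82 on the log2 scale (SE 0.16; limma, adjusted p = 0.00214), and the call held without any 1 library. In 4-8 Tregs the log2 difference was -0.54 (limma, adjusted p = 0.0505). Adcy7, an adenylyl cyclase of immune cells, had rlog values of 8.96, 9.25 and 8.92 in islet and 8.55, 8.52 and 8.52 in spleen 12-4.4m1 Tregs. It rose by 0.51 ± 0.14 (SE) in islets (limma, adjusted p = 0.0286), a call kept without islet replicate 1 or 3 and lost without islet replicate 2 (0.122), without any 1 of the spleen libraries (up to 0.119) and without the mean-variance trend (0.0866). In 4-8 Tregs its log2 difference was 0.24 (limma, adjusted p = 0.322). Every tissue difference of these genes was measured in the same libraries in which the heat shock and acinar lists were higher in islets.

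The genes whose values ran most like those of each gene were found by the root mean square distance between rlog values, each centred on its table's mean, over 24 values in 4 tables and 7927 genes. Entpd1 itself varied by 0.317 on that scale around its table means, and Setbp1 at 0.155 and Arl14ep at 0.155 were among its nearest genes. The log2 differences of Setbp1 were 0.74 (islets) and 0.24 (spleen) between the TCRs, and 0.66 (4-8) and 0.09 (12-4.4m1) between the tissues. For Adora2a, which varied by 0.313, the nearest were Tmc8 at 0.124, Rbm10 at 0.14 and Dusp2, a phosphatase of MAP kinases, at 0.159. For Nt5e, which varied by 0.226, they were Zxdb at 0.112, Ssr3 at 0.128 and B4galt1, a galactosyltransferase, at 0.141. The distances are descriptions, since most libraries enter 2 tables.

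**Figure D4:**
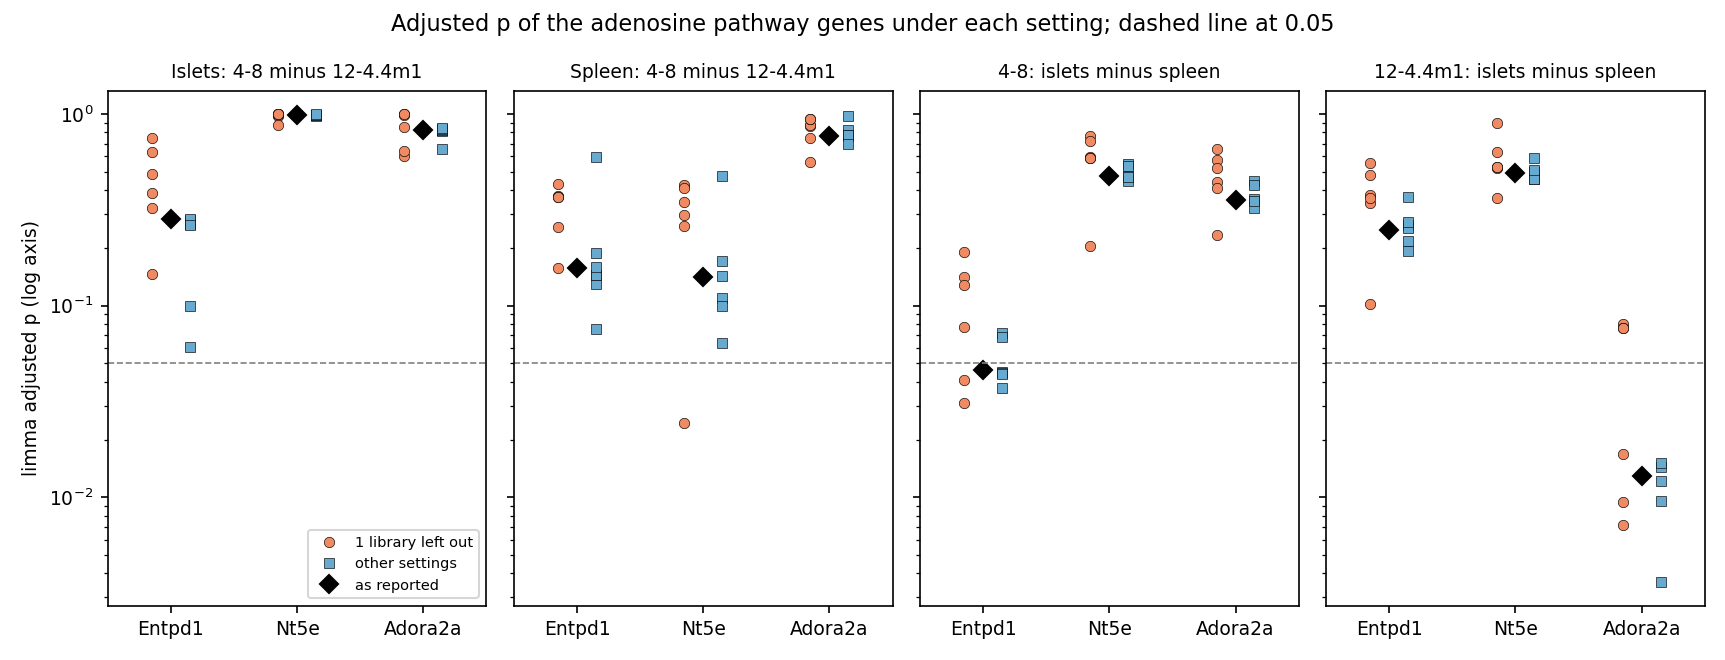
Adjusted p from limma (vertical log axis) for Entpd1, Nt5e and Adora2a in each table, as reported (diamonds), with 1 library left out (circles) and under the other settings (squares), with a dashed line at 0.05. Points fall on both sides of the line for Entpd1 in the 4-8 tissue table, Adora2a in the 12-4.4m1 tissue table and Nt5e in the spleen TCR table, and all points for Entpd1 in both TCR tables lie above it.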

How the data were processed

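RNA of sorted Tregs was lysed in Triton X-100, reverse transcribed, amplified and tagmented with Nextera XT, per the labels. The submitters' processing notes name DESeq, DESeq2 1.1.0, STAR 1.1.0, Cufflinks and TopHat 1.0.0 with builds mm10 and GRCm38, without roles. Per the file headers, the authors deposited for each comparison an rlog value (log2 scale) for each library, a DESeq2 table (mean normalized count, a signal after their scaling, a Wald score, log2 fold change, p-value and adjusted p) and a Cuffdiff table (FPKM per group, log2 fold change, p-value and q-value). The authors' fold changes run from the first group to the second, opposite to the rlog difference for 98.9% to 99.4% of well-counted genes, and their sign was turned. rlog shrinks low values, so folds are understated. Depth per library cannot be read from these values and is not given elsewhere in what was used. The mean normalized counts summed to 898995 and 1316454 in the islet and spleen TCR tables, and to 1284347 and 918913 in the 4-8 and 12-4.4m1 tissue tables.

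Each table was fitted alone with limma 3.58.1 (lmFit, eBayes with trend, not robust) in R 4.3.3, 3 libraries against 3, on genes with a mean normalized count of at least 10, with 2-sided p-values and Benjamini-Hochberg adjustment over all of them. The fitting was tested on simulated data. Libraries were assigned by title. 1 column of the islet TCR table has a number that matches no title and was used as islet 4-8 without a number, and the descriptions of both spleen replicate 2 libraries list the other TCR's tissue table while the columns follow the titles. No column was left out (0), and 4 rows of repeated symbols were. Tables were not compared with one another by test.

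Named pathway genes were all those called in a table, the 2 with the smallest p in each, and P2rx7, Slc29a1, Ada, Dpp4, Cd38 and Adora2b. The 3 genes most like each member were sought, and 1 of them is not reported here. The members, gene lists, filters and tests were chosen with earlier results of these data known. Marker lists of Tregs, T cells, CD8 T and NK cells, fibroblasts and islet endocrine cells were read as well. Those of Tregs and T cells are given with Foxp3 above. Of the other 3 lists few genes reached the filter. These were 1 CD8 T and NK gene, 0 fibroblast genes and at most 1 islet endocrine gene in each table, and none was called. The summed FPKM of the islet endocrine markers was 6.78 in islet 4-8 and 39.5 in islet 12-4.4m1. In spleen it was 6.22 and 27.4, and these sums were not tested. Endothelial markers had 1 of 1 tested lower in islets in the 4-8 table, beside 2.84% of all genes. Coordinates come from GENCODE on GRCm38, and the promoter from RefSeq, which held entries for Entpd1 and Nt5e. Alternatives were the filter, the trend, robust estimation, centring on the median, a replicate block, a covariate for the style of the islet titles, leaving out both spleen libraries numbered 2, and leaving out each library.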

Additional observations from a re-analysis of the deposited data

How the results depend on the processing

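Every direction of Entpd1 and Adora2a held under all settings in all 4 tables. For Nt5e between the TCRs in islets, whose difference is near 0, the sign turned in the fit with a replicate block (0.0854), which kept only the numbered pairs, and with title style as a covariate (0.0140), and ranged from -0.145 to 0.0836 with 1 library left out, the highest being without the unnumbered 4-8 library alone. The labels do not say that replicate numbers pair libraries, and same-numbered correlations ran from -0.118 to 0.127 over the 4 tables. In the spleen TCR table they were 0.0748, 0.0865 and 0.12, and every library correlated best with its own number, a hint from the data and not from the design. With the block the genes called between TCRs went from 39 to 78 in spleen. In islets they went from 30 to 54, but that fit also left out the unnumbered 4-8 library and 12-4.4m1 replicate 3, and 44 were called without the latter alone, so the rise cannot be put down to the block. The block ended no call of Entpd1 or Adora2a between tissues. Islet TCR calls were 15 at a mean normalized count of at least 50, 52 with title style, and 9 to 44 with 1 library out; the 1 called pathway gene became 0 at the stricter filter and 0 with robust estimation (0 to 1 with 1 library out). Spleen TCR calls were 17 without the trend, 11 without both libraries numbered 2, and 14 to 56 with 1 library out (pathway 0 to 1; Nt5e -0.61 to -0.34). For 4-8, tissue calls were 717 (306 to 1211 with 1 library out), pathway calls 5 (2 to 8; 2 without a filter), and Entpd1, 0.57 (0.40 to 0.69), did not pass without a filter (0.57, adjusted p 0.0719) or without the trend (0.57, adjusted p 0.0688). For 12-4.4m1, tissue calls were 575 (288 to 610) and Adora2a 0.64 to 1.01. At the stricter filter Nt5e had no value in any table and Adora2a only in the islet TCR table. The cause of a changed call was not tested.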
